A study of Mus musculus with 2 samples.

Results

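Acyl-CoA synthetases of the long-chain (Acsl) and medium-chain (Acsm) families were examined in liver of mice that lack Lpcat3 in hepatocytes. Of 8 genes (Acsl1, Acsl3, Acsl4, Acsl5, Acsl6, Acsm1, Acsm3 and Acsm5), 7 were found by gene symbol or gene ID, with 12 of the 45101 probe sets of the array. Acsl1 was not named by the platform annotation used here, and no value is given for it. All mice were male, 12 weeks old, chow fed and fasted for 6 hr, and all were homozygous for a floxed Lpcat3 allele. The Flox/Flox group (Lpcat3fl/fl) carried no Cre, and the L-Lpcat3 KO group (Lpcat3fl/fl Albumin-Cre) carried a Cre transgene driven by the albumin promoter, which is active in hepatocytes and leaves Lpcat3 in other liver cells. Mice with Cre and without floxed alleles were not among the groups. RNA of 5 mice was pooled per genotype and hybridized to 1 Affymetrix mouse genome array, so every ratio below is 1 value without replicate error, and no test was possible.

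Acyl-CoA synthetases use ATP to join a fatty acid to coenzyme A, which holds the fatty acid in the cell and makes it a substrate for oxidation, esterification or elongation. Long-chain synthetases act at the endoplasmic reticulum, mitochondrial outer membrane and lipid droplets, whereas medium-chain synthetases act in the mitochondrial matrix. Acsl4 prefers arachidonate, and the arachidonoyl-CoA it makes is of the kind that Lpcat3 transfers to lysophospholipids. The comparison shows how transcripts of enzymes that supply acyl-CoA differ between a Flox/Flox pool and a pool whose hepatocytes lack Lpcat3, which consumes it.

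None of the 6 measured Acsl and Acsm genes differed by 1.5-fold between the pools, and Acsl1 was not read. Acsl3 and Acsl4 were lower in L-Lpcat3 KO at 4 of their 5 measured probe sets, with log2 ratios between -0.33 and -0.26. Acsm3 was higher by 1.38-fold, Acsl5 by 1.17-fold and Acsm5 by 1.13-fold, and Acsm1 was nearly equal in both pools. Acsl6 gave no signal above background in either. A probe set was counted as measured when at least 1 pool exceeded a signal of 76.4, the median of all signals, and signals below this floor were raised to it. This left 9 of the 12 probe sets, all above the floor in both pools. None of the 9 was at least 1.5-fold higher, against 4.40% of all 20650 measured probe sets, and none was at least 1.5-fold lower, against 3.62%. Over the 9, the median log2 ratio (L-Lpcat3 KO to Flox/Flox) was -0.02, with 4 ratios above and 5 below 0, and over all measured probe sets it was 0.00, with 50.7% above 0. Acsl3 and Acsl4 account for all 5 of the ratios below 0. By gene, with the brightest probe set of each, 4 of 6 measured members lay above 0 and the median was 0.10. The sign of the probe set median was not stable, being 0.0033 with the floor raised to the 75th percentile and 0.03 without the _s_at and _x_at probe sets, whose probes can match several transcripts or genes.

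Because no replicate error exists, ratios were set beside the spread of all measured probe sets of like signal. The SD of log2 ratios was 0.39 for mean signals below 500, 0.24 from 500 to 2000, 0.18 from 2000 to 10000 and 0.14 above 10000. This SD describes how probe sets differ on these arrays, not how mice differ. Acsm3 lay outside the central 95% of its signal class, and the other 8 probe sets lay inside theirs. Of the 9 ratios, 5 were within 1 SD of 0 and 1, that of Acsm3, was beyond 2.

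**Figure D1:**
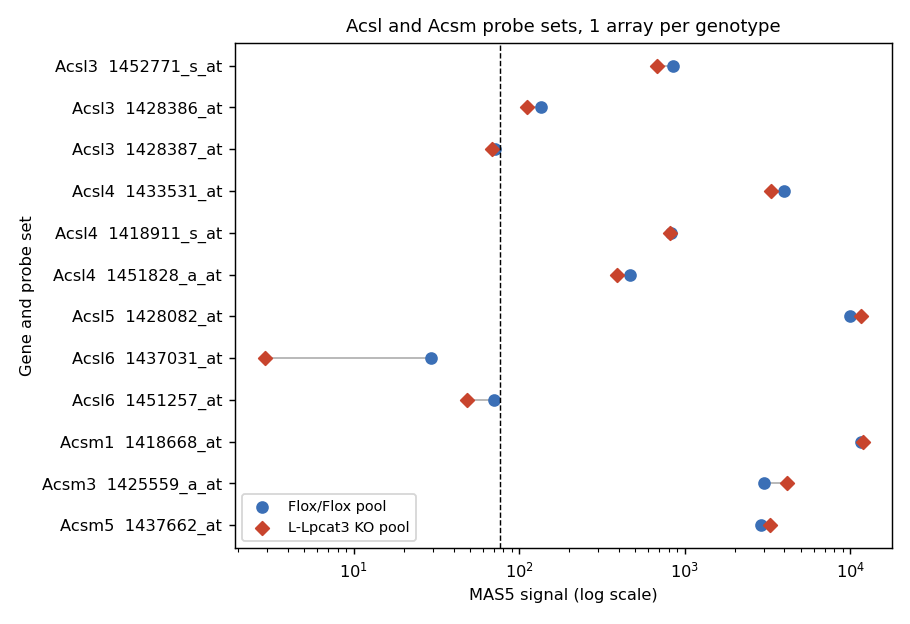
MAS5 signal (x axis, log scale) of the 12 Acsl and Acsm probe sets (y axis) in the Flox/Flox pool (blue circles) and the L-Lpcat3 KO pool (red diamonds), 1 array each, with a dashed line at the floor of 76.4. L-Lpcat3 KO lies to the left for Acsl3 and Acsl4 and to the right for Acsl5, Acsm3 and Acsm5, and both Acsl6 probe sets lie below the floor. Signals of different probe sets are not comparable as RNA levels.

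Acsl3, which resides at the endoplasmic reticulum and on growing lipid droplets, was lower in L-Lpcat3 KO. Its probe set 1452771_s_at read 854 in the Flox/Flox pool and 681 in the L-Lpcat3 KO pool, a log2 ratio of -0.33 (1.25-fold lower). Probe set 1428386_at read 135 and 111, a log2 ratio of -0.28. Both probe sets thus pointed the same way, by 1.36 and 0.71 SD of their signal classes. The last Acsl3 probe set, 1428387_at, did not reach the floor (71.6 and 68.0).

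Acsl4, the arachidonate-preferring member, was represented by 3 measured probe sets. Probe set 1433531_at read 3988 in the Flox/Flox pool and 3335 in the L-Lpcat3 KO pool, a log2 ratio of -0.26 (1.20-fold lower). Probe set 1451828_a_at read 469 and 387, a log2 ratio of -0.28, close to the first. Probe set 1418911_s_at read 823 and 812 and was nearly equal in the pools, with a log2 ratio of -0.02. In SD of their signal classes, the 3 ratios were -1.41, -0.70 and -0.08, in the order given. The size of the Acsl4 difference therefore depended on the probe set. Which transcripts or regions of Acsl4 each of them reads was not analysed here.

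Acsl5, a long-chain synthetase of mitochondria and endoplasmic reticulum that is prominent in liver and intestine, was the one measured Acsl gene with a higher signal in L-Lpcat3 KO. Its single probe set, 1428082_at, read 9966 in the Flox/Flox pool and 11644 in the L-Lpcat3 KO pool, a log2 ratio of 0.22 (1.17-fold higher, 1.59 SD of its class). Acsl6, which is best known from brain, where it supports enrichment of docosahexaenoate in phospholipids, was not measured. Its probe set 1451257_at read 69.8 in the Flox/Flox pool and 48.5 in the L-Lpcat3 KO pool, and 1437031_at read 29.2 and 2.89. All 4 of these signals lay below the floor, so no ratio was taken from them.

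Among the medium-chain synthetases, Acsm3 had the highest ratio of all members. Its probe set 1425559_a_at read 3023 in the Flox/Flox pool and 4164 in the L-Lpcat3 KO pool, a log2 ratio of 0.46 (1.38-fold higher), which is 2.53 SD of its signal class. Acsm5, read by 1437662_at, was 2903 and 3282, a log2 ratio of 0.18 (1.13-fold higher, 0.97 SD). Acsm1, a mitochondrial enzyme also known as butyryl-CoA synthetase, was 11646 and 11855 by 1418668_at, a log2 ratio of 0.03. All 3 ratios of the Acsm members were thus above 0, and their median was 0.18. Over all measured probe sets, 50.7% of ratios were above 0. Acsm2, not a listed member, had log2 ratios of -0.24 and -0.355, the latter at a probe set below the floor in L-Lpcat3 KO. The median of the 6 measured Acsl probe sets was -0.27, of which 2 read Acsl3, 3 read Acsl4 and 1 reads Acsl5. Each Acsm member has 1 probe set here, so no second probe set could be compared, and reads of close paralogs by 1 probe set were not tested.

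**Figure D2:**
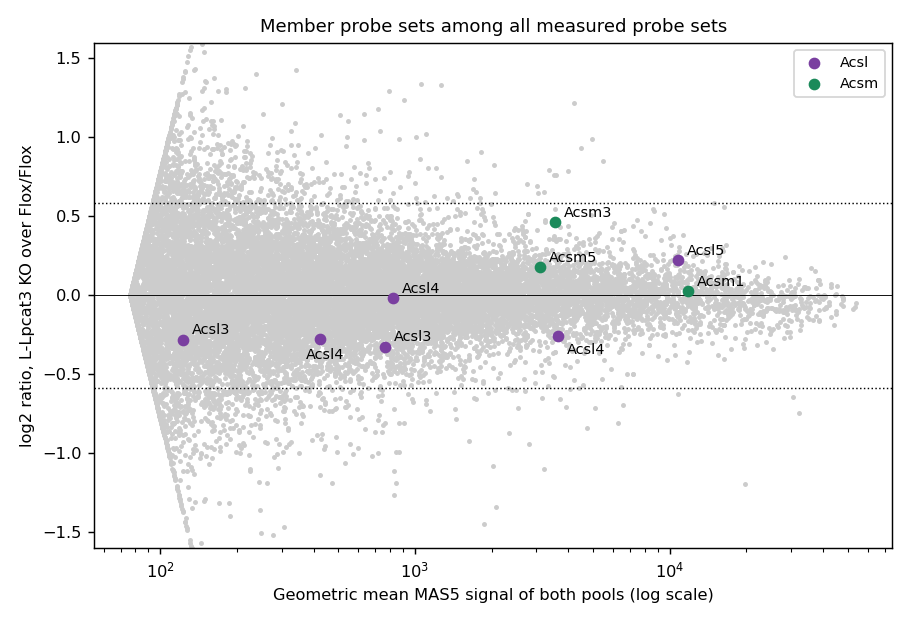
Each point is 1 probe set, placed by its mean signal over the pools on a log scale (x axis, geometric mean) and by its log2 ratio, L-Lpcat3 KO to Flox/Flox (y axis), for 20650 measured probe sets (grey), with Acsl in purple and Acsm in green; dotted lines mark 1.5-fold and 32 grey points fall outside the y axis. All 9 member probe sets lie between the dotted lines, and Acsm3 (0.46) sits at the upper edge of the probe sets of like signal.

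The start regions of these genes are described by sequence. The description was set beside the signs of the ratios after both had been seen, and it covers 2 genes below and 4 above 0. Of the latter, 2 (Acsm1 and Acsm5) lie within 1 SD of 0. Below 0, so do 1428386_at of Acsl3 and 1451828_a_at and 1418911_s_at of Acsl4. The description therefore tests nothing. RefSeq sequences (GRCm38.p6) from 250 bases before to 50 after the annotated start are shown for the measured members other than Acsm1, whose signal was nearly equal in the pools, with 1 start each. They are Acsl3 (chr1:78657575-78657874, plus strand), Acsl4 (chrX:142390486-142390785, minus strand), Acsl5 (chr19:55253119-55253418, plus strand), Acsm3 (chr7:119760673-119760972, plus strand) and Acsm5 (chr7:119526015-119526314, plus strand). Capitals mark the GC box GGGCGG, the box named CCAAT after its letters, and the TATA box, searched as TATAAA, each on either strand.
Acsl3: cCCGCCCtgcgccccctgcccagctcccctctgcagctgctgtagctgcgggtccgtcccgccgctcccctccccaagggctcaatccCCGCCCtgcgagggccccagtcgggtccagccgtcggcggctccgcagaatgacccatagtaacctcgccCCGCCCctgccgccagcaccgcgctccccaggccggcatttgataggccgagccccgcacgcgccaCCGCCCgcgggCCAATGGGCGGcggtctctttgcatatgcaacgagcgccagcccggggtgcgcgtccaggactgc
Acsl4: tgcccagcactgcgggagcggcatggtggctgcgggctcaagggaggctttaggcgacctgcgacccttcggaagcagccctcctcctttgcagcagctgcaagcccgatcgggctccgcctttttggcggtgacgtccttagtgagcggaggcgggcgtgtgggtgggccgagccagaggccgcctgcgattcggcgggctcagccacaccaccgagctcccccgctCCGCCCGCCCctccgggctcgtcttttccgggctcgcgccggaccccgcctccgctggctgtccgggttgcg
Acsl5: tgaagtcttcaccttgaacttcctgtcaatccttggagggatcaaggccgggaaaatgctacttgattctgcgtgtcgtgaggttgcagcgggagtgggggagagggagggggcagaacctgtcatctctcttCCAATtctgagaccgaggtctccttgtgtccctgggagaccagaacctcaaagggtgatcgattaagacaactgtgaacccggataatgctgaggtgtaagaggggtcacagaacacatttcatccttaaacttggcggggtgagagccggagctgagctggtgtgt
Acsm3: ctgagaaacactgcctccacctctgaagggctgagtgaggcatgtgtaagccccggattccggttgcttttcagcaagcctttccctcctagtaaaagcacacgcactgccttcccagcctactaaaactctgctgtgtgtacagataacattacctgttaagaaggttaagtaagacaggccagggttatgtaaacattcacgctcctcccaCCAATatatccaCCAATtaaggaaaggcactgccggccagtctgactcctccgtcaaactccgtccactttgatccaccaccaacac
Acsm5: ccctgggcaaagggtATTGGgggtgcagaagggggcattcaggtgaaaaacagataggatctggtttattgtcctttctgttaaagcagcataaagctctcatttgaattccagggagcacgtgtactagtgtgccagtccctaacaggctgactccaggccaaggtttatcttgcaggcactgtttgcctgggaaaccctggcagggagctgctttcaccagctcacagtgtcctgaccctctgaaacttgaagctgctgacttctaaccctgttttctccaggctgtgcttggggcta

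Both genes with ratios below 0 have CpG-rich start regions. Acsl3 has 33 CpG dinucleotides, an observed-to-expected CpG ratio of 0.84 and 5 GC boxes. Acsl4 also has 33 CpG, a ratio of 0.86 and 2 GC boxes that overlap each other. The genes with ratios above 0 have fewer. Acsl5 has 9 CpG (0.45), Acsm3 has 7 (0.40), and Acsm1 and Acsm5 have 2 (0.11) and 1 (0.05). None of these 4 windows holds a GC box. CCAAT boxes occur on both sides, with 1 each in Acsl3, Acsl5, Acsm1 and Acsm5, 2 in Acsm3 and none in Acsl4. A GC box occurs in 35.7% and a CCAAT box in 37.4% of all 32851 start regions of this length, and 64.2% of them have a CpG ratio below 0.6. No TATA box was found in these windows (13.6% of all), and no AGGTCANAGGTCA direct repeat, the element bound by PPARα with RXR, in any Acsl or Acsm window (0.0396% of all). The single AGGTCA of that repeat was found in 16.3% of all start regions, and among the members it occurs once in Acsm1 and in 1 of 3 Acsl6 windows, where there are 2. These are matches of letters in 1 window per start, and they say nothing of elements farther away or of which factors bind.

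RefSeq places the Acsm genes close together on mouse chromosome 7, in the order Acsm5, Acsm2, Acsm1, Acsm4 and, past Thumpd1 and Ppp1ccb, Acsm3. Their ratios did not run together along this stretch. Acsm5 (0.18), Acsm1 (0.03) and Acsm3 (0.46) were above 0, whereas Acsm2 was 213 in the Flox/Flox pool and 181 in the L-Lpcat3 KO pool, a log2 ratio of -0.24, and Thumpd1 had a log2 ratio of -0.05. Acsm4 was not named on the array annotation used here. Acsm3 overlaps Eri2, an exonuclease gene with signals of 341 and 254 (log2 ratio -0.43), and Acsm5 overlaps Pdilt, with signals of 330 and 226 (-0.55). Acsl3 overlaps Utp14b (154 and 173, log2 ratio 0.17). Gm19950, a noncoding RNA gene that overlaps Acsm1, had log2 ratios of -0.47 and 0.08 at 2 measured probe sets, and the other noncoding genes that RefSeq places over members had none. Whether a probe set reads both genes of such a pair was not tested.

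Other enzymes that make acyl-CoA differed little. Of 16 listed genes outside the members, 9 were measured, none reached 1.5-fold, 8 had log2 ratios above 0, and the list median was 0.06. Slc27a4, Acsf2, Slc27a2, Slc27a1, Aacs and Slc27a5 were above 0 by no more than 0.083. At a second probe set, Slc27a1 had a log2 ratio of -0.40 and Aacs of 0.50. Of all 12084 measured genes, 50.7% had ratios above 0, and their median was 0.00. Over all measured genes, 4.04% passed 1.5-fold in the higher direction and 3.19% in the lower. Acss2, which makes acetyl-CoA from acetate in the cytosol, was highest, 7025 in the Flox/Flox pool and 9132 in the L-Lpcat3 KO pool (log2 ratio 0.38). It had 0.41 at its next probe set and -0.05 at a dim one that fell below the floor in L-Lpcat3 KO. Acsf3, a mitochondrial malonyl-CoA synthetase, had a log2 ratio of 0.20. The fatty acid transport protein Slc27a4 (0.00) and Acsm2 (-0.24) were at the low end.

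Genes that bind, split or use acyl-CoA were compared by lists. Among acyl-CoA thioesterases, which release free fatty acid and coenzyme A, 10 of 11 measured genes had ratios above 0 and the median was 0.26. Acot3 was 778 in the Flox/Flox pool and 1417 in the L-Lpcat3 KO pool (1.82-fold higher), Acot2 was 689 and 1110 (1.61-fold), and Acot1 was 2437 and 3821 (1.57-fold). Acot1, Acot2 and Acot3 are close paralogs of 1 gene cluster, and whether their probe sets tell them apart was not tested. Acot9 was 309 and 201 (1.53-fold lower), and Acot8 had a log2 ratio of 0.05. Acot12, whose log2 ratio of 0.26 is the list median, had -0.35 at its other measured probe set. The other Acot2 probe set had a log2 ratio of 1.21, with Flox/Flox just below the floor. Several thioesterases are PPARα targets, and PPARα target genes were among those the study chose from these arrays, so the count lends no independent support to a direction.

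Carnitine acyltransferases and the carnitine carrier had a median of 0.12 over 5 measured genes, with none past 1.5-fold, but of -0.06 when the probe sets of a gene were averaged. Crat (655 and 928, log2 ratio 0.50) was highest, but its next probe set had a log2 ratio of -0.40. Slc25a20 had a log2 ratio of 0.14 with 0.19 at its other probe set, Cpt2 of 0.09 with -0.72 at a probe set that fell below the floor in L-Lpcat3 KO, and Crot of -0.06. Acyl-CoA dehydrogenases and oxidases had a median of 0.14 over 8 measured genes, again with none past 1.5-fold. Acad10 (0.44, with 0.50 at its other probe set) and the long-chain dehydrogenase Acadl (0.26) were highest, and Acads (-0.04) and Acox2 (-0.06) lowest. Among acyl-CoA binding proteins, 5 measured genes had a median of 0.04, or of -0.02 with probe sets averaged. Acbd3 was 571 and 794 (log2 ratio 0.47), although its next probe set had a log2 ratio of -0.24, and Acbd4 had a log2 ratio of 0.23. Acbd5 (-0.09) and Dbi, the main cytosolic acyl-CoA binding protein (-0.04), were lowest.

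Acyltransferases of glycerolipid and sterol ester synthesis consume long-chain acyl-CoA. Their list had a median of -0.01 over 17 measured genes, with 8 ratios above and 9 below 0, and of 0.10 with probe sets averaged. Soat1 and Soat2, its sterol ester enzymes, were not named by the annotation used here, so sterol ester synthesis was not read. Mogat1, a monoacylglycerol acyltransferase, had a signal of 71.2, under the floor, in Flox/Flox mice, and of 147 in L-Lpcat3 KO mice, at least 1.93-fold higher. Lpcat1 was 242 and 122 (1.98-fold lower), with a log2 ratio of 0.44 at its other measured probe set, in the opposite direction. Agpat4 (0.34) and Gpat3 (0.30) were next highest, and Lclat1, an acyltransferase of phosphatidylinositol and cardiolipin, next lowest (-0.18). Genes that conjugate acyl groups to amino acids had a median of -0.11 over 4 measured genes, which turned to 0.07 with the floor at the 75th percentile. Baat, which conjugates bile acids, was 5600 and 4586 (log2 ratio -0.29, with -0.40 at its other probe set), Acnat2 had a log2 ratio of -0.31, and Keg1 (0.11) and Glyat (0.07, with -0.05 at both other probe sets) were above 0. Over these 7 lists, 59 of 76 genes were measured, of which 4 passed 1.5-fold higher, 2 passed 1.5-fold lower, and 41 had ratios above 0, with a median of 0.08. Over all measured genes, 4.04% passed 1.5-fold higher, 3.19% passed 1.5-fold lower, and 50.7% had ratios above 0. Of the 32 listed genes with several measured probe sets, 17 had at least 1 probe set of opposite sign to the brightest.

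**Figure D3:**
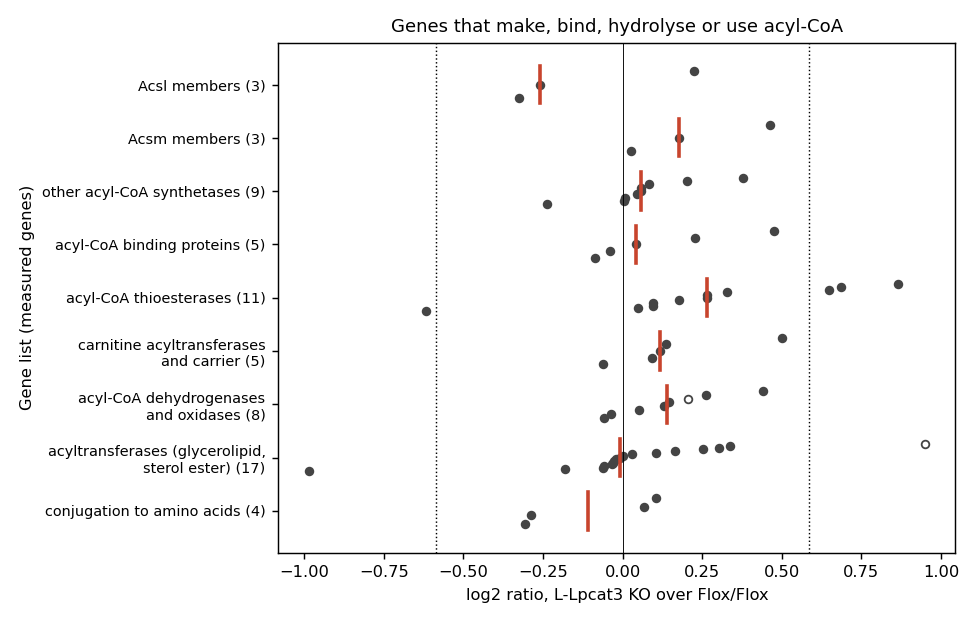
Genes of 9 lists (y axis, with how many were measured) by their log2 ratio, L-Lpcat3 KO to Flox/Flox (x axis). Each point is the brightest probe set of a gene, filled where both pools exceeded the floor and open otherwise, with list medians as red bars and 1.5-fold as dotted lines. The Acsl median is -0.26 (3 genes), the Acsm median 0.18 (3 genes) and the thioesterase median 0.26 (11 genes).

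The deleted gene and markers of liver cell types were read on the same arrays. Lpcat3 was 3310 in the Flox/Flox pool and 1305 in the L-Lpcat3 KO pool, 2.54-fold lower. All 7 measured hepatocyte markers, among them Alb (37859 and 39856), lay between -0.11 and 0.07 in log2 ratio. Kupffer cell and macrophage markers, all 10 of which were measured, had log2 ratios below 0, with a median of -0.28 and a summed signal of 11498 in the Flox/Flox pool and 10000 in the L-Lpcat3 KO pool. The ratios ran from -0.54 (Timd4) to -0.06 (the macrophage-specific Clec4f, 1441 and 1385). Clec4f, Csf1r (-0.08) and Marco (-0.08) lay within the range of the hepatocyte markers. Macrophages also express Acsl4, whose 3 ratios were -0.26, -0.28 and -0.02, and the part of these cells in the Acsl3 and Acsl4 signals was not tested. Sinusoidal endothelial markers had a median of 0.22, with 4 of 6 above 0 and summed signals of 5315 and 6160. Both sums weigh the brightest probe sets most, such as those of Csf1r and Clec4g, and do not measure cell numbers. Of 6 erythroid markers only Alas2 was measured (2362 and 2772). Stellate, bile duct, lymphocyte and neutrophil lists had 5, 3, 1 and 4 measured genes, and no stellate or lymphocyte marker passed 1.5-fold. Sox9 of bile duct (162 and 77.6) was 2.08-fold lower, and Mpo of neutrophils (124 and 80.1) 1.55-fold lower. Epcam of bile duct and Csf3r of neutrophils, both below the floor in Flox/Flox, were at least 1.68-fold and 1.57-fold higher. In whole liver, fewer cells of a type and less RNA per cell cannot be told apart. Ratios of 3′ to 5′ control signal, which follow RNA integrity, were 0.866 and 0.851 for Gapdh and 2.34 and 2.32 for Actb, with Flox/Flox first. They were far higher for the PyruCarb control, at 44.1 and 43.9. The TransRecMur control, with signals below the floor, gave 5.90 and 5.02.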

How the data were processed

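Total liver RNA, extracted with Trizol, was hybridized to 1 array per genotype, each a pool of 5 mice. For every probe set, each array has 1 intensity as deposited, a MAS5 signal per the labels, and the methods name GeneSpring GX. Software versions are not given in the sources used here. Each array's mean without the lowest and highest 2% of signals was 500.0, so both had been scaled to 1 level, which hides any overall shift in RNA. Array number limits the precision: with 1 pool a group there is no p-value or standard error.

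Of 45101 probe sets, 34945 had 1 gene symbol by the platform annotation, updated by gene ID to RefSeq (GRCm38.p6) for 34741. The annotation gave several genes for 932 and no name used here for 9160. The files name no genome build, so coordinates are those of the RefSeq start regions. Log2 ratios were taken on the deposited scale with the floor given above, and a gene's value is that of its measured probe set with the highest mean. Named genes were the members, Lpcat3 and, per list, the 2 highest and 2 lowest above the floor in both pools plus any past 1.5-fold. Members and lists were chosen with earlier results of these data known. Thumpd1, Eri2, Pdilt, Utp14b, Gm19950, Acsf2, Aacs, Slc27a1, Slc27a2, Slc27a5, Acot12 and the markers named were chosen after their values were seen. The scripts were tested on simulated data. Alternatives were median centring, quantile normalization, loess with a span of 0.3, floors at the 25th and 75th percentile or none, a pseudocount of 50, exclusion of _s_at and _x_at probe sets, and the mean over probe sets. Calculations ran in Python 3.11.15 (pandas 2.3.3, numpy 2.4.6, statsmodels 0.14.6 for loess), and matplotlib 3.10.9 drew the plots.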

Additional observations from a re-analysis of the deposited data

How the results depend on the processing

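Every log2 ratio of a measured Acsl or Acsm probe set or gene kept its sign under the 9 alternatives that could give it, 123 values in all, and none of these moved by as much as the SD of its signal class. Part of this was fixed in advance. Except under averaging, the value of a gene repeats that of its brightest probe set, so the 123 values count many ratios more than once. A probe set above the floor in both pools keeps its ratio under other floors that it passes and under exclusion of other probe sets. Averaging cannot change a gene with 1 probe set, and the pseudocount cannot turn a sign. Only median centring, quantile normalization and loess could turn the sign of a probe set. Acsm3 ran from 0.46 to 0.46, Acsl5 from 0.22 to 0.24, 1452771_s_at of Acsl3 from -0.33 to -0.31 and 1433531_at of Acsl4 from -0.26 to -0.25. The dim Acsl3 probe set 1428386_at ran from -0.33 to -0.20 and was not measured with the floor at the 75th percentile. The median over the member probe sets was -0.17 when the floor was lowered to the 25th percentile and -0.17 without a floor, since the dim Acsl6 and Acsl3 probe sets then enter, and it was 0.0033 under a floor at the 75th percentile and 0.03 without _s_at and _x_at probe sets. Without a floor, 1 member probe set, 1437031_at of Acsl6, was at least 1.5-fold lower (log2 ratio -3.34, at signals of 29.2 and 2.89). The count of genes in the 7 other lists that were at least 1.5-fold lower was 0 under a floor at the 75th percentile, 1 with the pseudocount, 1 without _s_at and _x_at probe sets and 1 by the mean over probe sets. Lpcat1 turned to 0.44 and Glyat to -0.05 without _s_at and _x_at probe sets, and Slc27a4 to -0.0026 with median centring. By the mean over probe sets, Cpt2 turned to -0.31 and Glyat to -0.01, Crat was 0.10, and the medians of the carnitine list (-0.06), the acyl-CoA binding list (-0.02) and the acyltransferase list (0.10) changed sign. The conjugation list median was 0.07 under a floor at the 75th percentile, and the acyltransferase median, at -0.01, was also at or just above 0 with either other floor, with none, and without _s_at and _x_at probe sets. Of all 500 values computed under alternatives, which hold the same repeats, 484 stayed within their limit. The limit is the SD of the signal class for single ratios, 0.1 for medians and 1.5 times for counts. No paired analysis was possible because each group is 1 array, and for the same reason no replicate could be left out.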
